A study of Mus musculus with 6 samples.

Results

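Molecular chaperones and folding enzymes were examined among the summits of an N4-acetylcytidine (ac4C) pull-down. Members were all entries whose gene symbol belongs to the heat shock protein, TRiC chaperonin, J protein, protein disulfide isomerase, FKBP or cyclophilin prolyl isomerase, prefoldin or Bag families, or is P4hb, Tcp1, Canx, Calr, Tbca or Nudc. This gave 28 of 1876 summits, on 20 of 1485 listed genes. A RefSeq list of mouse genes holds 128 protein-coding genes with a name of these families, so 108 had no summit in the list.

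The study used acRIP-seq: RNA fragments bound by an antibody to ac4C, an acetylated cytidine written on RNA by the acetyltransferase Nat10, are sequenced. The RNA was poly(A) RNA of wild-type 32D cells, a mouse bone marrow line kept in interleukin 3 at 10 ng/mL. It was taken with the ac4C antibody, with control IgG or with no antibody as input, with 2 libraries in each of 3 groups and no other treatment, time or genotype. The values come from 1 list of summits that its entry names present as a call on merged ac4C libraries, so no value belongs to a single library, no replicate error exists and the depth of each library is unknown.

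Each entry gives a fold enrichment by the authors' peak caller, a region, and a position in nucleotides (nt) from the start of a named Ensembl transcript; no genome sequence or coordinates of the same build were used here. Every fold was a whole multiple of 0.475, within 0.01 of a multiple, as a ratio of the fragment count plus 1 to a constant background of 1.11 fragments plus 1 would give. The number of fragments over each summit was read from the fold on this basis. Exact Poisson 95% intervals on these fragment counts cover counting error only. The fold has no term for input, IgG or transcript abundance, so more copies of an mRNA and more pull-down per copy cannot be told apart. Absence from the list does not show that an mRNA lacked ac4C, since expression was not measured and most numbered peaks of the call are not among those analysed here. The identity of the cells was set against marker genes, beside 6.71% of all protein-coding genes with a listed summit. Of 9 genes taken as myeloid or progenitor markers 5 had a summit, namely Spi1, Csf2rb, Csf2rb2, Fcer1g and Cd47. Il3ra, Mpo, Kit and Gata2 had none. Cd47 is not restricted to such cells. The markers were chosen with earlier results of these data known, so they are no independent check of identity. None of 3 B cell, 3 T cell or 3 erythroid markers had one, which at that share says little. Of 3 megakaryocyte markers Pf4 had one, with a fold of 125.

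Chaperones assist the folding of other proteins. In the cytosol, Hsp70 with its J protein partners binds nascent and unfolded chains, Hsp90 completes the maturation of kinases and receptors, and prefoldin hands actin and tubulin to the ring-shaped chaperonin TRiC. In the endoplasmic reticulum (ER), disulfide isomerases form and reshuffle disulfide bonds, and calnexin and calreticulin retain glycoproteins until they are folded. Dividing blood progenitors make much protein and use both systems.

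Listed members made up 15.6% of the families (20 of 128 genes; exact Clopper-Pearson 95% interval 9.81% to 23.1%), beside 6.71% of all protein-coding genes of the table (1469 of 21900). The families include genes used mainly in testis or other tissues, and so does the table, in shares that were not measured. The highest fold per listed member had a median of 21.8 (quartiles 16.9 and 56.7), beside 12.3 over all listed genes (quartiles 7.12 and 21.4). Of the 20 listed members, 17 had a highest fold at or above 11.4, the median of all summits, a level that 54.6% of all listed genes reached. Of the members, 10 of 20 had a highest fold at or above 21.4, the upper quartile of listed genes, a level that 25.1% of all listed genes reached. No test was made of these differences, since there were no values per library to make one with. The members were chosen with earlier results of these data known, so the shares and folds only describe the set.

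**Figure D1:**
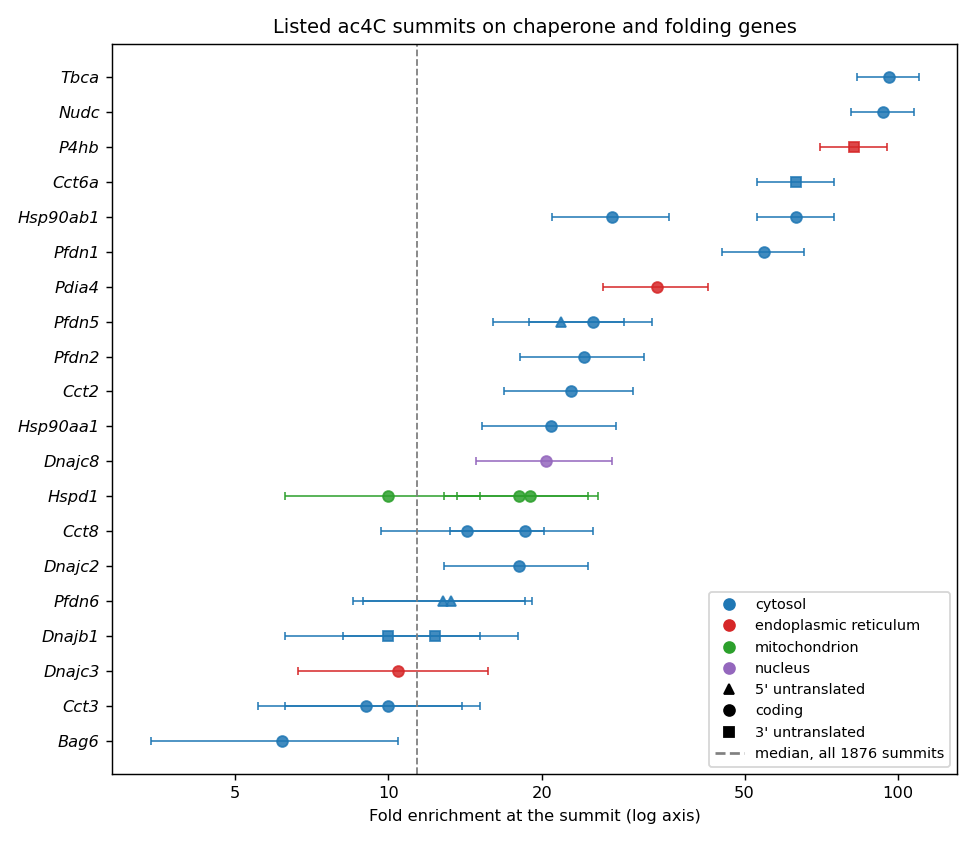
Fold enrichment (log axis) of all 28 summits on the 20 listed chaperone and folding genes, ordered by the highest fold; colour gives the compartment of the protein, marker shape the transcript region, bars the exact Poisson 95% interval of the fragment count, and the dashed line the median of all summits, 11.4. Tbca, Nudc, P4hb, Cct6a, Hsp90ab1 and Pfdn1 stand at 54.6 or more, and the other 14 genes at 33.7 or less.

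Tbca and Nudc, which assist tubulin and dynein, had the highest folds of the members, though their intervals overlapped that of P4hb. Tbca (ENSMUSG00000042043), whose protein captures beta-tubulin as it leaves the chaperonin, had 1 summit with a fold of 95.9, from 201 fragments (95% interval 174 to 231), at nt 107 of ENSMUST00000046644 in coding sequence. Nudc (ENSMUSG00000028851), which encodes a dynein-associated partner of Hsp90, had 1 coding summit with a fold of 93.5, from 196 fragments (170 to 225), at nt 192 of ENSMUST00000030665. The order of Tbca, Nudc and P4hb is thus within counting error. Of the related genes Tbcb, Tbcc, Tbcd, Tbce, Nudcd2 and Nudcd3, none had a listed summit. By highest fold, Tbca and Nudc ranked 11 and 12 among the 1485 listed genes.

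Prefoldin had 4 of 5 genes listed, or 80% (28.4% to 99.5%), beside 6.71% of all protein-coding genes. It had the largest share among families with more than 2 members. The family was singled out by this count, so the share only describes it. Pfdn1 (ENSMUSG00000024346) had a fold of 54.6 from 114 fragments (94.0 to 136.9) at nt 216 in coding sequence. Pfdn5 had a coding summit of fold 25.2 at nt 278 of one transcript and a 5′ untranslated summit of 21.8 at nt 158 of another. Pfdn2 had a coding summit of 24.2 at nt 193. Pfdn6 had summits of 13.3 and 12.8 in the 5′ untranslated region of separate transcripts, at nt 96 and nt 106. Pfdn1 thus lay above the intervals of the other 3, whose highest summits ranged from 27 to 52 fragments, and Pfdn4 was unlisted. The remaining subunit, Vbp1, does not carry the family name and had a fold of 21.8 at nt 1362 in its 3′ untranslated region.

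The chaperonin TRiC, which receives substrates from prefoldin, had 4 of 9 genes listed. This was 44.4% (13.7% to 78.8%), beside 6.71% of all protein-coding genes. Cct6a (ENSMUSG00000029447) had the highest fold of these, 63.1, from 132 fragments (110 to 157), at nt 2218 in the 3′ untranslated region. The others were in coding sequence, with folds of 22.8 on Cct2 at nt 697, 18.5 and 14.2 on Cct8 at nt 204 and nt 305, and 9.97 and 9.02 on Cct3 at nt 1322 and nt 759. Cct6a stood above the intervals of these 3 genes. By highest summit, the interval of Cct8 overlapped those of both Cct2 and Cct3, while those of Cct2 and Cct3 did not overlap. Unlisted were Tcp1, Cct4, Cct5 and Cct7, whose proteins sit in the same ring, and Cct6b. The listed genes of this family ranged from 9.97 to 63.1 in highest fold.

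Of the 3 Hsp90 genes, the cytosolic pair was listed and the ER form, Hsp90b1, was not. This was 66.7% (9.43% to 99.2%), beside 6.71% of all protein-coding genes. Hsp90ab1 (ENSMUSG00000023944), the constitutive form, had coding summits of fold 63.1, from 132 fragments (110 to 157), at nt 396 of ENSMUST00000165127 and of fold 27.5, from 57 fragments (43.2 to 73.9), at nt 265 of ENSMUST00000130406. Hsp90aa1, the stress-inducible form, had a coding summit of 20.9 from 43 fragments (31.1 to 57.9) at nt 519. The interval of the taller Hsp90ab1 summit lay above that of Hsp90aa1, and that of the lower one overlapped it. The mRNAs of the pair are similar in sequence, and reads shared between them could have been assigned to either.

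No Hsp70 gene was listed. None of 14 genes of the Hsp70 and Hsp110 family had a summit (upper bound of the exact 95% interval 23.2%), which includes Hspa8, the constitutive cytosolic form, Hspa5, the ER form also known as BiP, and Hspa9, the mitochondrial form. That bound lies above the 6.71% of all protein-coding genes, so this family was not shown to be listed less often. Among their J protein partners 4 of 45 genes were listed, or 8.89% (2.48% to 21.2%), near the share of all genes. Dnajc8, a nuclear J protein linked to splicing, had the highest fold, 20.4 at nt 422 in coding sequence. Dnajc2, which acts on nascent chains at the ribosome, had 18.0 at nt 869 in coding sequence. Dnajb1, the heat-inducible partner of Hsp70, had 3′ untranslated summits of 12.3 and 9.97 at nt 1701 and nt 1879. The fourth was the ER protein gene Dnajc3. The folds of these 4 genes came from 42 fragments at most, and the intervals of neighbours in this order overlapped.

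In the Hsp60, Bag, prolyl isomerase and small heat shock protein families the intervals of the shares included the 6.71% of all protein-coding genes, so none was shown to be listed less or more often. Hspd1, the mitochondrial chaperonin Hsp60, had 3 coding summits, of fold 19.0 at nt 405 of one transcript and of 18.0 and 9.97 at nt 236 and nt 328 of another. Its partner Hspe1, the cap of the same folding chamber, was unlisted. Bag6, which escorts hydrophobic proteins in the cytosol, was the only listed gene of 6 Bag cofactors and the lowest of all members, with a fold of 6.17 from 12 fragments (6.20 to 21.0) at nt 1111 in coding sequence. Prolyl isomerases, which speed the rotation of bonds before proline, had no summit on any of 22 genes (upper bound 15.4%), among them Ppia, the abundant cyclophilin A gene, and Fkbp1a. None of 8 small heat shock protein genes was listed (upper bound 36.9%). Hspg2, an extracellular matrix gene that fits the letters of the name rule, had no summit either.

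**Figure D2:**
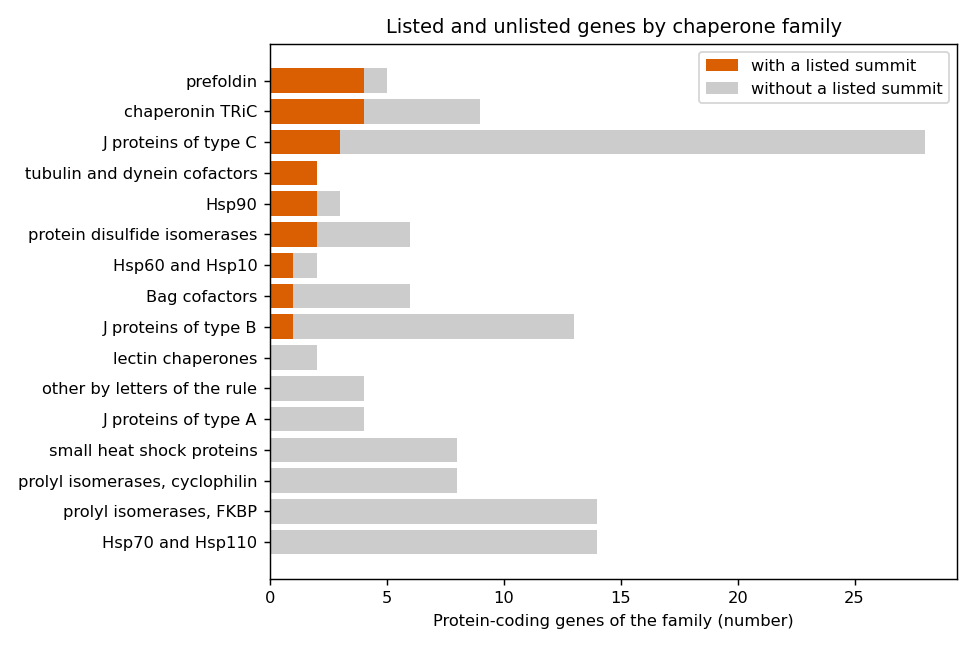
Number of protein-coding genes of each chaperone family with a listed summit (orange) and without one (grey). Prefoldin had 4 of 5 genes listed and TRiC 4 of 9, while the Hsp70 and Hsp110 family had none of 14. Of all protein-coding genes, 6.71% were listed.

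Cytosolic and ER members were then compared. Of 67 genes whose proteins work in the cytosol, 15 were listed, or 22.4% (13.1% to 34.2%). Of 27 genes of ER proteins, 3 were listed, or 11.1% (2.35% to 29.2%), so the intervals overlapped. The cytosolic interval lies above the 6.71% of all protein-coding genes, and the ER interval includes it. This is no test against that share, since the members were chosen with earlier results of these data known. Tbca and Nudc, both listed, entered the cytosolic set by single name. These intervals treat genes as independent, which subunits of a complex need not be.

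The 3 listed ER genes were far apart in fold. P4hb (ENSMUSG00000025130), the principal protein disulfide isomerase, had a fold of 82.1 from 172 fragments (147 to 200) at nt 2435 in the 3′ untranslated region. Pdia4, a relative of it, had 33.7 from 70 fragments (54.6 to 88.4) at nt 1852 in coding sequence. Dnajc3, an ER partner of BiP that also restrains the stress kinase PERK, had 10.4 from 21 fragments (13.0 to 32.1) at nt 564 in coding sequence. None of the 3 intervals overlapped. Among the unlisted ER genes were the lectin chaperones Canx and Calr, the disulfide isomerases Pdia2, Pdia3, Pdia5 and Pdia6, and Hsp90b1.

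The median highest fold was 33.7 over the 3 ER genes (10.4 to 82.1) and 22.8 over the 15 cytosolic genes (6.17 to 95.9). The ER range lay inside the cytosolic range. With summits in coding sequence alone the order of the medians turned, to 22.1 over 2 ER genes and 23.5 over 12 cytosolic genes, because P4hb then drops out. Outside these compartments, 1 of 9 mitochondrial members was listed, Hspd1, or 11.1% (0.281% to 48.2%), and 1 of 7 nuclear members, Dnajc8, or 14.3% (0.361% to 57.9%). Both intervals include the 6.71% of all protein-coding genes. Another 18 members whose place is elsewhere or uncertain had no listed summit.

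**Figure D3:**
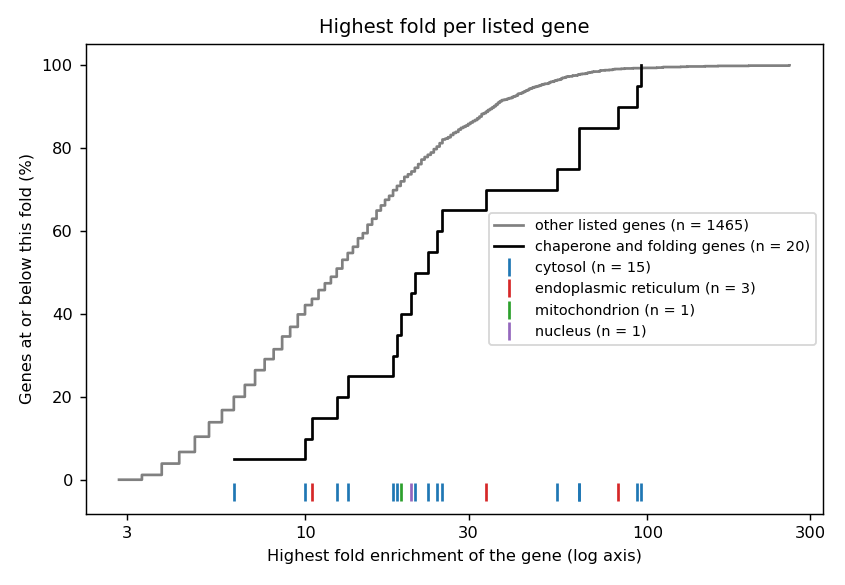
Percentage of genes at or below each highest fold (log axis), for the 20 listed chaperone and folding genes (black) and the 1465 other listed genes (grey); ticks at the bottom mark each member by compartment. The members' median was 21.8 and that of the other genes 12.3, and ER members fall at 10.4, 33.7 and 82.1 among the cytosolic ones.

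In the order of highest folds, 18 of 19 neighbouring pairs had overlapping intervals. The exception was the step from Pfdn1 at 54.6 to Pdia4 at 33.7. It left 6 genes above and 14 below, and the upper 6 came from 5 families and both compartments. Genes farther apart in the order were separable, such as Tbca with a lower limit of 174 fragments against Cct6a with an upper limit of 157.

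Summits on members lay mostly in coding sequence. There were 21 of 28 in coding sequence, or 75% (55.1% to 89.3%), beside 48.0% of all summits. The 3′ untranslated region held 4 summits, or 14.3% (4.03% to 32.7%), beside 44.9% of all, and these were on P4hb, Cct6a and Dnajb1. The 5′ untranslated region held 3, or 10.7% (2.27% to 28.2%), beside 7.09% of all, on Pfdn5 and Pfdn6. With the strongest summit per gene, 16 of 20 members, or 80%, were in coding sequence, beside 46.0% of all genes. Cytosolic members had 15 of 21 summits in coding sequence and ER members 2 of 3. The intervals over summits treat them as independent, though some summits shared a gene. The share of members' transcripts that is coding was not measured.

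Coding summits of members lay closer to the transcript start than those of the whole list in median. The median position was nt 396 (quartiles 236 and 697; 21 summits) beside nt 730.5 (322 and 1383; 900 summits). Within the first 300 nt were 8 of 21, or 38.1%, beside 23.0% of all coding summits. The 8 summits were on 8 genes, namely Tbca, Nudc, Pfdn1, Pfdn2, Pfdn5, Cct8, Hsp90ab1 and Hspd1. The nearest summits on either side of that limit were Pfdn5 at nt 278 and Cct8 at nt 305. None of the 8 belonged to an ER gene, but ER genes had only 2 coding summits, too few to compare compartments. The median fold was 26.3 for these 8 summits and 18.0 for the 13 later ones, beside 11.9 and 9.97 over all coding summits. A position counts from the start of the named transcript, which may be a short isoform, and the length of the transcripts was not measured.

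**Figure D4:**
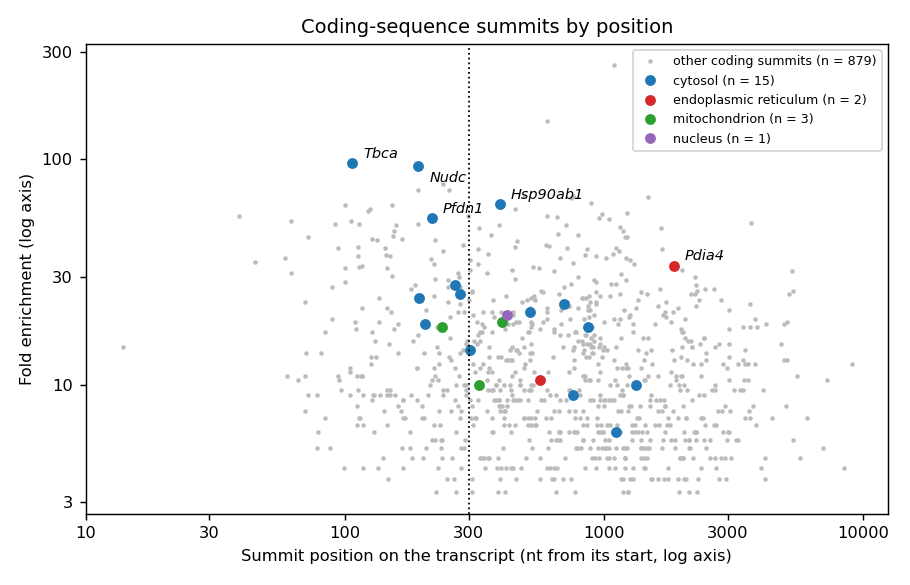
Fold enrichment against position on the transcript (both log axes) for the 21 coding summits on members, coloured by compartment, and the 879 other coding summits in grey; the dotted line marks nt 300. Tbca, Nudc and Pfdn1 lie before it and Pdia4 at nt 1852.

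Several summits were listed for 7 of 20 members, or 35%, beside 20.1% of all listed genes. The other 13 members had 1 each. Only the pair of Hspd1 summits at nt 236 and nt 328 lay on 1 transcript, and the other 8 of 9 pairs within a gene lay on different transcripts, so they may be 1 site counted on several isoforms. The Pfdn6 pair was 10 nt apart in position. The fragment counts overlapped within counting error in 8 of 9 pairs. The exception was Hsp90ab1, where the taller summit had 2.29 times the fold of the lower.

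Most member summits came from peaks that the caller had split. The entry names mark 18 of 28 summits, or 64.3%, as parts of a peak with several summits, beside 26.5% of all. These 18 came from 17 peaks, whose letters imply at least 38 summits, so at least 20 were not among those analysed here. A peak listed only by its first letter was counted as a single summit, so both bounds are low. The P4hb summit carried the letter of a ninth summit and that of Cct6a of a sixth, each the only one listed of its peak. Split peaks were taller in the whole list too, with a median fold of 22.8 against 9.49 for undivided ones. Within members the medians were 21.8 for 18 summits and 13.3 for 10. The part of peak splitting in the height of the members was not tested.

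Of the 20 listed members, 8 overlap another gene in the gene table. Cct6a overlapped Psph, Pfdn2 overlapped Klhdc9 and Nit1, Hspd1 overlapped Hspe1, and Cct8 overlapped Usp16. None of those 5 protein-coding genes had a summit of its own. Overlap was taken over whole gene spans, introns included, and not at the summits. The sources used here do not say whether strand was used in counting, so the gene behind a summit on these 4 members may be uncertain. The same holds for 4 more that overlap a small RNA gene or a pseudogene, namely Pdia4 with Mir704, Pfdn5 with Gm51296, Dnajc8 with Gm24762 and Dnajc3 with Gm4678. Cct6a also overlapped the small nucleolar RNA genes Snora15 and Gm23245. Hspd1 also has 5 named pseudogenes in the table and Cct3 has 1, with which they could share reads. The same holds for some unlisted members. Hspe1 has 6, Fkbp1a has 4, and Hspa9, Dnaja1, Dnajb6 and Dnajc19 have 1 each. Only pseudogenes that carry the name of their gene were counted, so others may have been missed.

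Genes that work with the members but do not carry their names were listed at 15 of 60, or 25% (14.7% to 37.9%), beside 6.71% of all protein-coding genes. With only summits at or above the median fold of the list, 9 of 60, or 15%, were listed. These genes, too, were chosen with earlier results of these data known. In the ER and the unfolded protein response 7 of 25 were listed. The highest were Sdf2l1, a partner of BiP, at 38.9 in coding sequence, and Ero1a, the oxidase that recharges protein disulfide isomerase, with 2 summits of which the taller, in the 3′ untranslated region, had a fold of 37.5. Erp44, which retrieves ER proteins, had 28.5 in coding sequence and Ddit3, the stress transcription factor CHOP, 23.3 in coding sequence. Os9, Edem1 and Txndc5 had 14.7, 7.12 and 4.75. Of the regulators Xbp1, Atf4, Atf6, Eif2ak3 and Ern1 none had a summit.

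Among 15 Hsp70 and Hsp90 cofactors and heat shock regulators, 4 were listed. Cdc37, which delivers kinases to Hsp90, had 36.1 in the 3′ untranslated region, and Ahsa1, which activates the Hsp90 ATPase, 33.7 in the 5′ untranslated region. Chordc1 had 5.22, and the heat shock transcription factor gene Hsf1 had none. Of 7 mitochondrial folding and protease genes, Grpel1, the exchange factor of mitochondrial Hsp70, had 36.1, Clpb 6.65 and Clpx 3.80. Vbp1 was the only listed gene of 8 tubulin and chaperonin cofactors, none of 2 nascent chain genes was listed, and none of the 3 histone chaperone genes Npm1, Nap1l1 and Nasp was. The ER and unfolded protein response genes of this list were thus listed at 28%, beside the 11.1% of ER members of the named families. The difference was not tested, and the sets are unlike. The former were picked by function and include regulators such as Ddit3, while the latter are all ER genes that carry the family names.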

How the data were processed

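The 6 libraries fall into ac4C pull-down, IgG and input groups, and nothing in the labels says whether those of a group came from separate cultures. Per the submitters' processing notes, the authors used cutadapt, Bowtie2 and MACS2 with build GRCm39; the sources used here give no versions, parameters or control for peak calling. The deposited list gives, per the file headers, a summit position, a fold enrichment (ratio) and −log10 values of a p-value and a q-value for each summit; genes and regions are the authors'. The lowest −log10 q-value of a member was 8.27.

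Fragment counts were derived from the folds. Medians, counts, exact Clopper-Pearson and Poisson intervals were computed with Python 3.11.15, pandas 2.3.3 and SciPy 1.17.1, and tested on simulated data; no test across samples was possible. Of 1485 symbols 1475 matched a RefSeq gene table (assembly GRCm38.p6), which served for gene names, types and overlaps. Compartments and roles were assigned from general knowledge. Every listed member is named. The members and lists were chosen with earlier results of these data known. The values of 1 gene of the list of other folding genes are not reported here.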

Additional observations from a re-analysis of the deposited data

How the results depend on the processing

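No paired analysis was possible because the list holds no value for a single library; leaving out a replicate gave no value for the same reason. The 8 results were recomputed under 6 alternatives, namely folds at or above the median of all summits, coding summits alone, the mean fold of a gene, no prolyl isomerases or Hspg2, genes of every type in the table, and the strongest summit per gene, each where it applied. All 28 values stayed within the exact 95% interval of the reported value (for the ER median, within the range of its 3 genes). Some of these outcomes were fixed in advance. No prolyl isomerase was listed, nor was Hspg2, so leaving them out could not change a median or the coding share. A median over some of the 3 ER genes cannot leave their range. The values that moved most, relative to those reported, were these. With folds at or above the median of all summits, the ER median was 57.9 over 2 genes, the ER share 7.41% and the share of the other folding genes 15%; with coding summits alone, the ER median was 22.1 and the ER share 7.41%. These follow from the fewer summits kept. Without prolyl isomerases and Hspg2 the ER share rose to 15.8% (3 of 19 genes), which follows from the fewer genes counted. Counting error limits the order of members, and the spread between cultures is unknown.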
